A study of Mus musculus with 23 samples.

Results

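Acod1 and Il4i1 encode enzymes that myeloid cells switch on during inflammation and that act through small metabolites. The pair, 2 of the 754 genes on a NanoString myeloid panel, was picked from the panel by gene name for a large rise from near the floor of the assay in mouse lungs given organic dust extract. Their dust levels against saline are therefore given as a description with no test. The left lungs of 23 mice were measured, each after 14 instillations of dust extract or of the saline vehicle (PBS), and after lavage of the whole lung. By the codes on the RNA extracts, dust was given to 3 Fat-1 female, 3 Fat-1 male, 4 wild-type (WT) female and 3 WT male mice. Saline was given to 2 Fat-1 female, 3 Fat-1 male, 2 WT female and 3 WT male mice. Fat-1 mice carry a Caenorhabditis elegans desaturase gene, whose product makes omega-3 out of omega-6 fatty acids and which WT mice do not have. The sources used here do not give the transgene's promoter or the age of the mice. Extracts were coded with 2 extraction days, called day 1 (8 dust and 4 saline lungs) and day 2 (5 dust and 6 saline lungs), and lungs are named by group, number and day.

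Acod1, formerly called Irg1, is a mitochondrial enzyme that removes a carboxyl group from the citric acid cycle intermediate cis-aconitate and so makes itaconate. Itaconate slows succinate dehydrogenase, reacts with Keap1 to release the stress response factor Nrf2, and restrains several inflammatory cytokines in mouse macrophages. Il4i1 is a secreted L-amino acid oxidase that breaks down phenylalanine, tyrosine and tryptophan, with hydrogen peroxide and ammonia as by-products, and its tryptophan products can activate the aryl hydrocarbon receptor. Acod1 is known as a gene of macrophages and neutrophils that meet bacterial products, and Il4i1 as a gene of activated macrophages, dendritic cells and B cells.

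The regions around both gene starts are shown because the levels of the 2 genes moved closely together between dust lungs. Both sequences are RefSeq promoters of GRCm38.p6, plus strand, from 250 bases before to 50 after the gene start, with the matches named below in capitals.
Acod1, chr14:103046762-103047061: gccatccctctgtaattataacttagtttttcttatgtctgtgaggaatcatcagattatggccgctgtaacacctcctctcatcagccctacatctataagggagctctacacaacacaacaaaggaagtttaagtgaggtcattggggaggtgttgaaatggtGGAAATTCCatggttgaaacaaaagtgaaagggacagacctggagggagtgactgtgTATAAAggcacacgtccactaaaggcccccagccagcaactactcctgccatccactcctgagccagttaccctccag
Il4i1, chr7:44836038-44836337: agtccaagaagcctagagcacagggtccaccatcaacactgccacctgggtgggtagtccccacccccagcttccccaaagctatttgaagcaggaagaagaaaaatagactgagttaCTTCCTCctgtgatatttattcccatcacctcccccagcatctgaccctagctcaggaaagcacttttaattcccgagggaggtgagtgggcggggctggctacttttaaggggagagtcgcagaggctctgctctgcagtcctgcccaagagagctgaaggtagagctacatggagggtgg
The Acod1 sequence held GGAAATTCC, a match on the minus strand to the kappa-B motif GGNNTTTCC, at position −85 from the gene start, and the TATA motif TATAAA at −28. The Il4i1 sequence held CTTCCTC, the reverse complement of the PU.1 motif GAGGAAG, at −132. Of the 32851 RefSeq mouse promoters, 5.82% held the kappa-B motif and 13.6% the PU.1 motif on either strand, and 8.32% held TATAAA on the sense strand. Another 4 motifs had no match in these 2 windows, namely STAT (TTCNNNGAA), ISRE (GAAANNGAA), AP-1 (TGANTCA) and C/EBP (TTGCNNAA), which 8.30%, 8.56%, 7.81% and 10.8% of promoters held. The 2 genes thus shared none of the motifs searched. RefSeq also lists a transcript that reads through from Nup62 into Il4i1 under the name Il4i1b, and the probe sequence was not used here, so the Il4i1 count may include that transcript.

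The deposited values are normalized counts, that is, each lung's probe counts times its own scale factor. Counts under 20 had been set to 20, and in the 5 lungs with a factor under 1 a scaled value under 20 also reads 20. A value of 20 is thus a floor, which can hide up to 20 counts multiplied by the lung's factor where the factor is above 1, and up to 20 in the other 5 lungs. That factor ran from 0.682 to 4.21, and a floored value could therefore hide up to 84.3 in the lung with the largest one. Recovered counts ran from 110453 to 812429 per lung. The labels of 4 lungs disagreed on the group and the extract code was used. Among lungs coded dust this touched the lung coded Fat-1 male dust lung 1 of day 1, which its other labels call WT. The lung coded WT male saline lung 2 of day 2 has a title that says WT female dust, and both enzymes were at the floor in it. The lungs coded Fat-1 female saline lung 1 of day 1 and Fat-1 male saline lung 2 of day 2 are called WT female saline by their other labels. A further 2 lungs carried the scanner's saturation message, namely Fat-1 male dust lung 1 and WT male saline lung 1 of day 2. The ratio of positive control probe A to C stood apart in another 2 lungs, at 4.03 in Fat-1 female dust lung 2 of day 1 and 12.002 in WT female saline lung 1 of day 2, against 7.96 to 11.2 in the others.

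Acod1 was above the floor in all 13 dust lungs and in 1 of 10 saline lungs. In Fat-1 dust lungs of day 1 it had 385 and 347 normalized counts in females and 139 and 213 in males. In WT dust lungs of day 1 it had 299 and 359 in females and 309.9 and 382 in males. These 8 lungs lay above every other lung, except that Fat-1 male dust lung 1 of day 2 exceeded the lowest of them. The Fat-1 dust lungs of day 2 had 26.7 in the female and 168 in the male. The WT dust lungs of day 2 had 61.3 and 42.0 in females and 110.1 in the male. The lowest values, in Fat-1 female dust lung 1 and WT female dust lung 2 of day 2, each rested on 23 recovered counts (95% Poisson interval 14.6 to 34.5, counting error only), against 19 and 16 for the highest negative control probe of the same lung. In saline, all 5 Fat-1 lungs and 4 of 5 WT lungs were at 20, and WT female saline lung 1 of day 2 had 23.97. That value was 27 recovered counts, no more than the highest negative control probe of that lung, also 27. All 13 dust lungs were above the highest saline value, and 10 of 13 were above 84.3, the most that any floored saline value could hide.

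Il4i1 was above the floor in all 13 dust lungs and in 3 of 10 saline lungs. In Fat-1 dust lungs of day 1 it had 591 and 1021 normalized counts in females and 238 and 347 in males. In WT dust lungs of day 1 it had 334 and 514 in females and 447 and 768 in males. The single highest value of either gene was thus in a Fat-1 female lung, and the lowest of day 1 was in a male lung of the same genotype. The Fat-1 dust lungs of day 2 had 51.15 in the female and 314 in the male. The WT dust lungs of day 2 had 109.5 and 49.3 in females and 216.5 in the male. The saline lungs above the floor were all of day 2, with 44.5 in Fat-1 female lung 1, 35.2 in Fat-1 male lung 2 and 58.6 in WT female lung 1. Of these, the Fat-1 male lung is called WT female by its other labels. Dust and saline lungs overlapped, since 11 of 13 dust lungs were above the highest saline value, and the other 2 were the same females of day 2 that had the lowest Acod1.

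**Figure D1:**
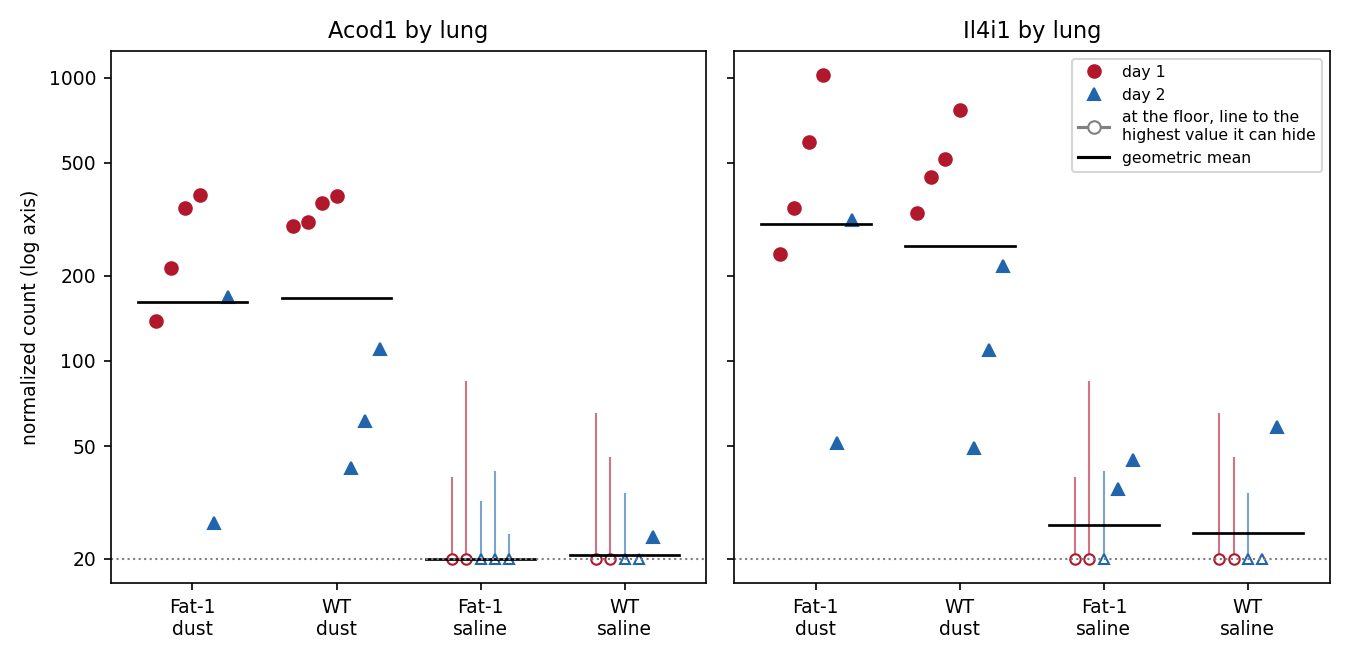
Normalized counts of Acod1 (left) and Il4i1 (right) in each lung on a log axis, by genotype and exposure, with circles for extraction day 1 and triangles for day 2. Open symbols are at the floor of 20, with a line up to the highest value the floor can hide, and the black line is the geometric mean of the values as deposited. The dust lungs span 26.7 to 385 for Acod1 and 49.3 to 1021 for Il4i1, and most saline lungs are at the floor.

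Acod1 averaged 219 ± 135 normalized counts and Il4i1 385 ± 285 in dust (SD, n = 13 each), and no saline mean is given because of the floor. On the scale of log2(value + 1), averaged over the 4 strata of genotype and sex, dust minus saline was 2.98 for Acod1 and 3.39 for Il4i1. These differences ranked 8 and 4 of the 711 genes with a value over the floor in 1 or more lungs. Clec5a, a myeloid lectin receptor, stood just above Acod1 at 3.03, and Il1b just below it at 2.95. Since a floored value can hide a level up to its lung's limit, a ratio of geometric means with every floored saline value at that limit gives a lower bound. By that bound Acod1 was at least 4.44-fold higher and Il4i1 at least 6.36-fold higher in dust than in saline. With the same floor of 84.3 in every lung the log2 differences were 1.21 and 1.87. At that floor Il1b was at 2.69, the receptor gene Tnfrsf1b at 2.19 and Cd14 at 2.15, each above both enzymes. The ranks given here thus hold only for the values as deposited. Without the 2 lungs whose control ratio stood apart the log2 differences were 2.86 and 3.37, and with extraction day as a block 2.74 and 3.22. Over all 711 genes 43.3% were higher and 9.99% lower in dust by limma with an adjusted p under 0.05, so a higher level in dust was common on this panel. In whole tissue, fewer cells of a type and less RNA per cell cannot be told apart.

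Acod1 differed between dust and saline by 2.96 on the log2 scale in Fat-1 and by 3.00 in WT mice. Il4i1 differed by 3.46 in Fat-1 and by 3.32 in WT mice. Limma's test of the difference between these responses, Fat-1 minus WT, gave −0.04 for Acod1 (95% interval −1.90 to 1.81, adjusted p = 0.999) and 0.14 for Il4i1 (−1.85 to 2.13, adjusted p = 0.999). That fit had no term for extraction day, so its intervals also hold the spread between days. Its residual SD was 1.11 for Acod1 and 1.19 for Il4i1, against 0.65 and 0.81 in the fit with day terms used below. A difference within those intervals was not detectable with that fit and this number of lungs. Since 9 of 10 saline lungs for Acod1 and 7 of 10 for Il4i1 were at the floor, this contrast mostly repeats the genotype difference among dust lungs. No gene passed for this contrast (0% of 711, with 21 at an unadjusted p under 0.05).

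Among dust lungs, neither enzyme passed the test between genotypes. Acod1 averaged 213 ± 134 normalized counts in Fat-1 dust lungs (SD, n = 6) and 223 ± 146 in WT dust lungs (n = 7). The difference, Fat-1 minus WT, was −0.11 on the log2 scale (SE 0.58, 95% interval −1.32 to 1.11, limma adjusted p = 0.996). Il4i1 averaged 427 ± 339 in Fat-1 dust lungs and 348 ± 251 in WT dust lungs, a difference of 0.17 (SE 0.62, interval −1.13 to 1.47, adjusted p = 0.987). Both genotypes spanned almost the whole range of the dust lungs, and the differences were far smaller than the spread between lungs. With genotype labels exchanged within day, the exact permutation test gave −0.25 for Acod1 (two-sided p = 0.590) and 0.06 for Il4i1 (p = 0.907) over 700 arrangements. With extraction day as a block, limma gave −0.20 for Acod1 (adjusted p = 0.984) and 0.10 for Il4i1 (adjusted p = 0.998). Without that block limma called 0% of the 711 genes between genotypes in dust, and 22 had an unadjusted p under 0.05. The sign of the Acod1 difference turned to 0.33 when groups were taken from the sample titles, and the Il4i1 difference was −0.25 after leaving out Fat-1 female dust lung 2 of day 1, the lung with the highest Il4i1.

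In saline lungs, where most values were floored, Fat-1 minus WT was −0.06 for Acod1 and 0.03 for Il4i1 (limma adjusted p = 1 for each). Of all genes 0% were called in saline, with 10 at an unadjusted p under 0.05. Since 9 of 10 saline lungs for Acod1 and 7 of 10 for Il4i1 only give an upper limit, a difference below that limit was not detectable.

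Female and male dust lungs also overlapped widely. Acod1 averaged 253 ± 197 normalized counts in Fat-1 females (SD, n = 3) and 173 ± 37.3 in Fat-1 males (n = 3), and 190.4 ± 162 in WT females (n = 4) and 267 ± 141 in WT males (n = 3). Il4i1 averaged 554 ± 486 in Fat-1 females and 299.8 ± 56.0 in Fat-1 males, and 252 ± 213 in WT females and 477 ± 277 in WT males. The females were widely spread in both genotypes, with high values on day 1 and low ones on day 2. Female minus male was −0.50 for Acod1 (95% interval −1.72 to 0.71, limma adjusted p = 0.994) and −0.59 for Il4i1 (−1.89 to 0.72, adjusted p = 0.994). In lungs of day 1 alone the differences turned to 0.51 (adjusted p = 0.514) and 0.47 (adjusted p = 0.520), and in those of day 2 alone they were −1.85 (adjusted p = 0.0611) and −2.07 (adjusted p = 0.183). When Fat-1 female dust lung 1 of day 2, the lowest in Acod1 among dust lungs, was left out, they were 0.12 and 0.06. Limma called 0% of genes between the sexes, and 23 had an unadjusted p under 0.05.

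Both enzymes differed between the extraction days of the dust lungs. Acod1 averaged 304 ± 87.3 normalized counts in dust lungs of day 1 (SD, n = 8) and 81.6 ± 57.6 in those of day 2 (n = 5). Il4i1 averaged 533 ± 258 on day 1 and 148 ± 115 on day 2. With the groups of genotype and sex held equal, day 1 minus day 2 was 2.09 on the log2 scale for Acod1 (SE 0.35, 95% interval 1.35 to 2.83, limma adjusted p = 0.00447). For Il4i1 it was 1.98 (SE 0.43, interval 1.07 to 2.89, adjusted p = 0.0227). Each fit takes 1 spread from dust and saline lungs together, and saline lungs tied at the floor add little to it. The SD of log2 values was 1.29 in dust and 0.08 in saline for Acod1, and 1.36 and 0.57 for Il4i1. The SEs, intervals and limma p-values within dust lungs may therefore be too small. Both genes were higher on day 1, and 7 of 8 lungs of day 1 were above every lung of day 2 for each. In the exact permutation test within genotype the differences were 2.13 and 2.07 (two-sided p = 0.00381 each, 525 arrangements, smallest possible p 0.0019). Of all genes 6.89% passed for this contrast, 45 of them higher and 4 lower on day 1, and by size Acod1 and Il4i1 ranked 7 and 9 of 711. The pair was picked for a large rise in dust, and its ranks were not compared with those of other genes with such a rise. The median gene differed by 0.15.

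The call for Acod1 held without any single lung, while that for Il4i1 rested on several. The adjusted p of Il4i1 was 0.0599 without WT female dust lung 1 and 0.0815 without WT female dust lung 2, both of day 1. Leaving out lungs of day 2, it was 0.110 for the Fat-1 female lung 1, 0.0721 for the WT female lung 2 and 0.0891 for the WT male lung 1. The sets of lanes, or cartridges, nearly followed the days. WT female and WT male dust lung 2 of day 1 were read on the cartridge of day 2 and had 359 and 382 counts of Acod1, within the range of the other lungs of day 1. WT female dust lung 2 of day 2 was read on the cartridge of day 1 and had 42.0. With the cartridge as a block the day differences were 2.29 for Acod1 and 2.35 for Il4i1 (limma adjusted p = 0.0101 and 0.0129). Without the 2 lungs whose control ratio stood apart they were 2.00 and 1.80 (adjusted p = 0.0192 and 0.0414). The labels do not say what else differed between the days, and the mice of each day cannot be told apart from the handling of each day.

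By day, the lower bound on dust over saline was 5.22-fold for Acod1 and 8.68-fold for Il4i1 on day 1, and 2.34-fold and 3.07-fold on day 2. The geometric mean of the dust lungs was thus above the saline limits on each day, though the 2 bounds come from different saline lungs and were not tested against each other.

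**Figure D2:**
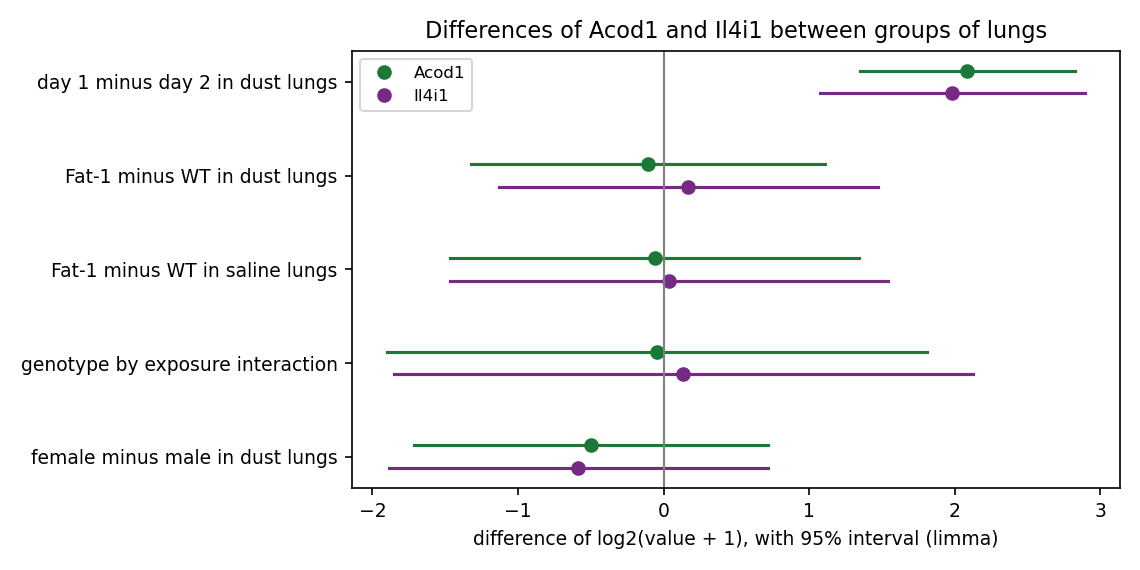
Differences of Acod1 (green) and Il4i1 (purple) on the log2(value + 1) scale, as points with 95% intervals from limma, for 5 contrasts. The intervals of day 1 minus day 2 lie above 0, from 1.35 to 2.83 for Acod1 and from 1.07 to 2.89 for Il4i1, and those of genotype, interaction and sex cross 0.

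The 2 enzymes varied together between dust lungs. Over the 13 dust lungs the log2 values of Acod1 and Il4i1 had a Pearson r of 0.96 and a Spearman rho of 0.95 (permutation p = 1e-05 for each, the smallest that 100000 resamples can give, and 6.50e-05 for r after Benjamini-Hochberg adjustment over 13 relations). Without the 2 lungs farthest from the median Il4i1, r was 0.92, without the dust lung whose control ratio stood apart 0.98, and without the saturated one 0.96. With day means subtracted r was 0.91 (adjusted permutation p = 0.00149). Within the 8 lungs of day 1 r was 0.80 (exact permutation p = 0.0111, adjusted 0.0529), and day 2 has too few lungs. In 13 of 13 dust lungs Il4i1 had the higher normalized count, but probes differ in efficiency and the 2 levels are not comparable between genes. The log2 difference Il4i1 minus Acod1 ran from 0.16 to 1.55, with a median of 0.78. It averaged 0.91 ± 0.33 in Fat-1 dust lungs (SD, n = 6) and 0.60 ± 0.34 in WT dust lungs (n = 7). By genotype it differed by 0.31 (exact permutation p = 0.154, adjusted over 2 tests 0.309) and by day by −0.07 (p = 0.764, adjusted 0.764). Neither difference of the ratio passed the test.

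Both enzymes varied with the neutrophil markers. The summed level of the 14 neutrophil markers on the panel ran from 2373 to 44227 normalized counts in dust (median 15446) and from 2029 to 4034 in saline (median 2601). In dust it had a median of 24234 on day 1 and 5040 on day 2. Across dust lungs its log2 value had r = 0.93 with Acod1 (permutation p adjusted over 13 relations 8.67e-05, rho 0.90) and r = 0.94 with Il4i1 (6.50e-05, rho 0.90). Within day 1 r was 0.88 for Acod1 (exact permutation p adjusted 0.0471) and 0.77 for Il4i1 (adjusted 0.0687). With day means subtracted r was 0.92 and 0.89, and without the 2 farthest lungs 0.86 and 0.85. The dust lungs with the lowest Acod1 and Il4i1, Fat-1 female lung 1 and WT female lung 2 of day 2, had neutrophil sums of 2682 and 2373, within the range of saline lungs.

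The neutrophil sum is led by the calgranulins S100a8 and S100a9, and defining markers of lower level were mostly not measurable. Of 13 tested neutrophil markers, 10 were higher and 0 lower in dust against saline, with a median log2 difference of 1.85, against 43.3% higher, 9.99% lower and a median of 0.26 over all genes. The rise was not particular to neutrophils. Of monocyte and interstitial macrophage markers 13 of 15 were higher (median 1.64), and of T cell markers 3 of 3 (median 1.76). Alveolar macrophages and dendritic cells had 7 of 9 higher each, and B cells 1 of 3, while 4 of 4 endothelial markers were lower. S100a8 rose by 2.49 (limma adjusted p = 0.00209) and Cxcr2, the receptor for neutrophil chemokines, by 2.78 (adjusted p = 0.00149). Ly6g, the surface antigen of mouse neutrophils, was at the floor in 9 of 13 dust lungs and 10 of 10 saline lungs, Mpo in 12 of 13 dust lungs and Elane in every lung. Between days in dust, 6 of 13 neutrophil markers were higher on day 1 and 0 lower, against 45 higher and 4 lower of all 711 genes. The part of the neutrophil content in the levels of Acod1 and Il4i1 was not tested.

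Correlations were also computed for markers of monocytes and interstitial macrophages, dendritic cells, alveolar macrophages and B cells. Over all 13 dust lungs, these were lower in value than those with neutrophil markers, a difference that was not tested. Markers of T cells, endothelium, epithelium and fibroblasts were not correlated with the enzymes. Without the 2 farthest lungs r with Il4i1 was 0.86 for dendritic cell markers and 0.85 for neutrophil markers. The farthest lungs were taken for each marker sum on its own. They were the lungs with sums of 6326 and 5471 for dendritic cells, and of 2373 and 2682 for neutrophils. The 2 values of r thus come from different lungs and give no order. The summed markers of monocytes and interstitial macrophages had r = 0.75 with Acod1 and 0.78 with Il4i1 (adjusted permutation p = 0.00751 and 0.00513), and with day means subtracted r was 0.70 and 0.71 (adjusted p = 0.0221 each). Those of dendritic cells had r = 0.64 and 0.66 (adjusted p = 0.0324 and 0.0319), but with day means subtracted neither passed (r = 0.60 and 0.59, adjusted p = 0.143 and 0.0965), and within day 1 r was 0.14 and 0.23. The sum of alveolar macrophage markers had r = 0.07 with Acod1 and 0.01 with Il4i1 (adjusted p = 0.984 each). When Fat-1 female dust lung 2 of day 1, which had the lowest sum among dust lungs and a control ratio that stood apart, was left out, r was 0.32 and 0.42. The range of the sum was 9774 to 43011 in dust and 7170 to 21399 in saline, and the median in dust was 25132 on day 1 and 31421 on day 2. Within day 1 alveolar markers had r = −0.31 with Acod1 and −0.75 with Il4i1 (exact permutation p adjusted 0.610 and 0.0529). B cell markers had r = 0.44 and 0.36 over all dust lungs, which turned to −0.39 and −0.42 with day means subtracted (adjusted p = 0.348 and 0.317). The scale factor of the lung had r = −0.03 and 0.05.

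**Figure D3:**
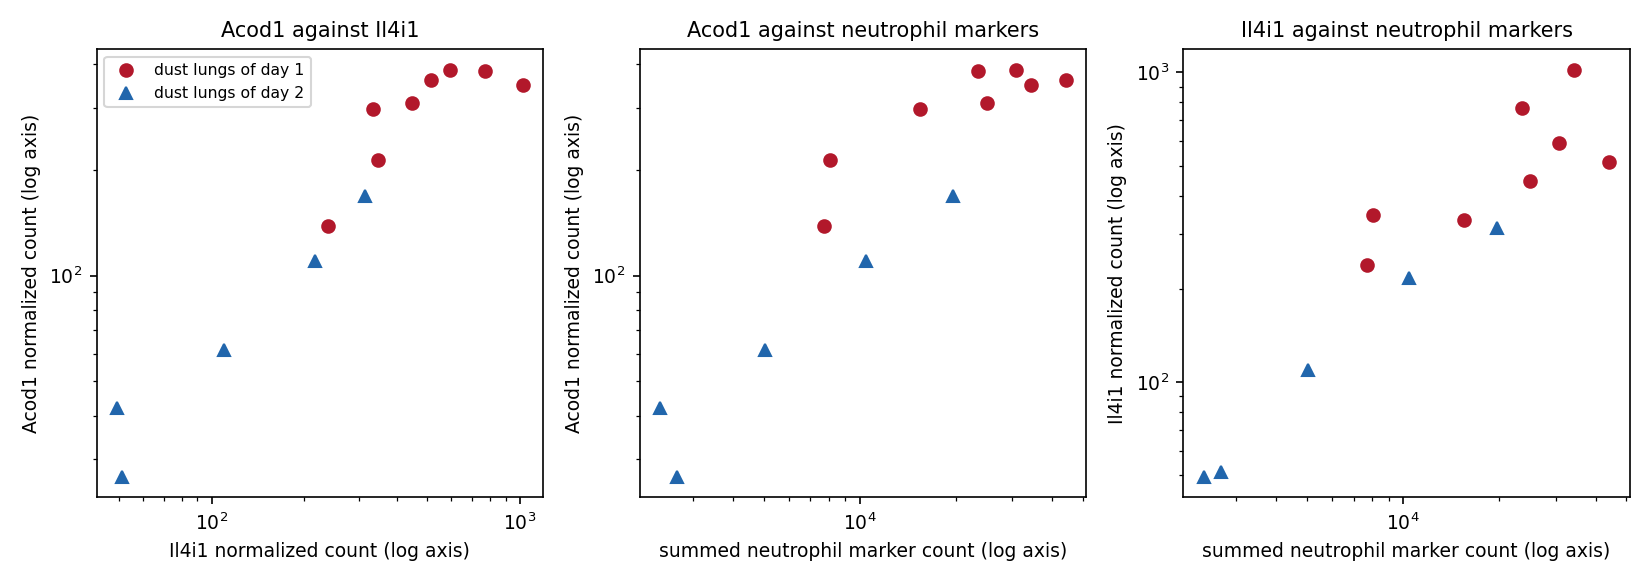
Acod1 against Il4i1 (left), and Acod1 (middle) and Il4i1 (right) against the summed normalized counts of 14 neutrophil markers, in 13 dust lungs on log axes, with circles for extraction day 1 and triangles for day 2. The points rise together in each panel, with r of 0.96, 0.93 and 0.94, and the lowest 2 lungs for each enzyme are from day 2.

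The genes with the most similar course over the dust lungs included Il1b, Il1rn, Il1r2 and Nlrp3. Among the 555 genes above the floor in all 13 dust lungs, the 5 with the highest r to Acod1 were Il4i1 (0.96), Il1rn (0.96), Il1b (0.95), Nlrp3 (0.94) and Amica1 (0.94). To Il4i1 they were Il1b (0.97), Malt1 (0.96), Acod1 (0.96), Il1r2 (0.96) and Nlrp3 (0.96). The median r over those genes was 0.40 with Acod1 and 0.38 with Il4i1, and the lungs share days, depth and cell content, so r is given as a description. Il1b, the inflammatory cytokine interleukin 1 beta, and Nlrp3, the sensor of the inflammasome that matures it, stood in both sets. Il1rn is the antagonist of the interleukin 1 receptor, Il1r2 its decoy receptor and one of the neutrophil markers above, Malt1 a protease of NF-kappa-B signalling, and Amica1 an adhesion molecule of leukocytes. Il1b ran from 109.3 to 4293 normalized counts in dust (median 1151), and its saline median was 131. Nlrp3 ran from 67.6 to 589 in dust (median 314), and its saline median was 73.3. Like the 2 enzymes, Il1b and Nlrp3 were higher on day 1 than on day 2 of dust, by 2.19 and 1.41 on the log2 scale (limma adjusted p = 0.0365 and 0.0323).

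**Figure D4:**
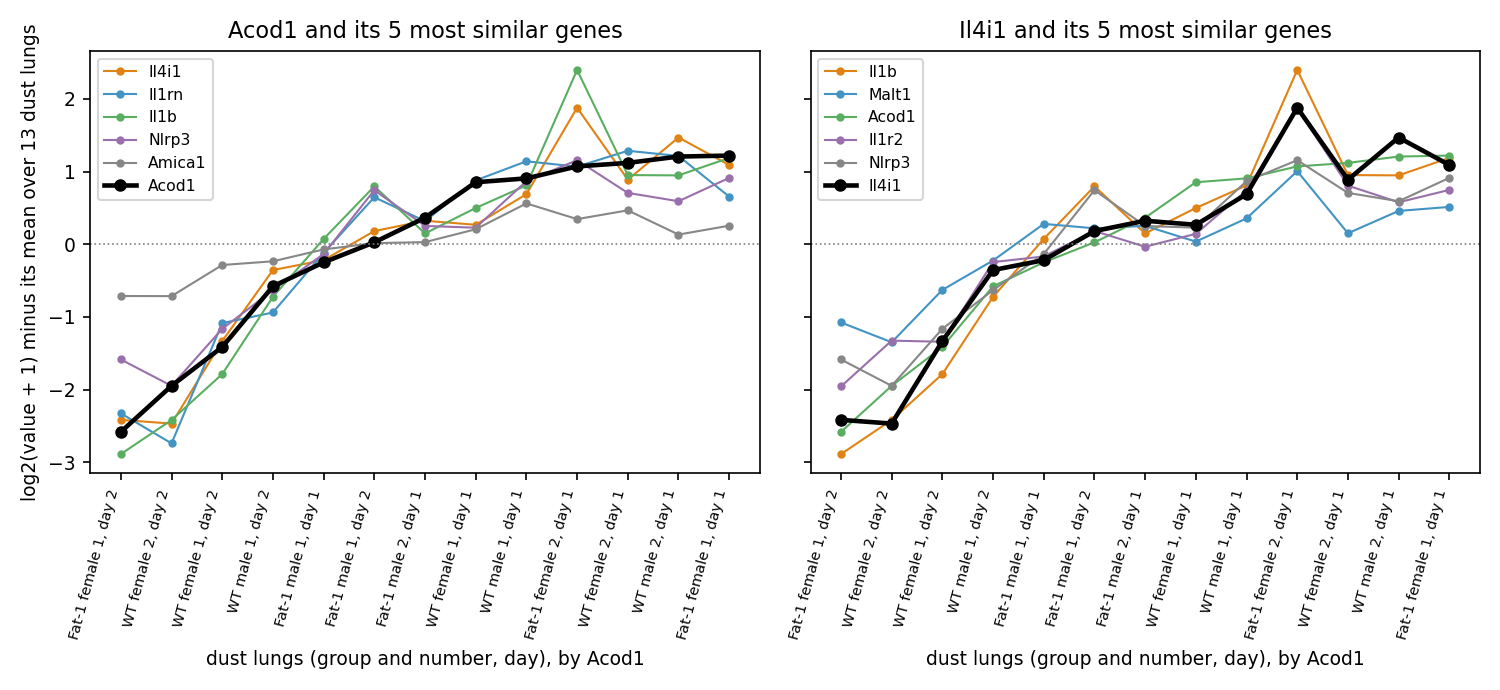
Log2 values of Acod1 (left, black) and Il4i1 (right, black) and of the 5 genes with the most similar course, each minus its mean over 13 dust lungs, with lungs ordered by Acod1. Lungs of day 2 fill the low end, and Fat-1 female lung 2 of day 1 has the highest Il1b and Il4i1.

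The panel held parts of the pathways around the 2 enzymes, which were compared between dust and saline by limma over all 711 genes, where 43.3% of genes were higher and 9.99% lower in dust and the median was 0.26. Without the 4 lungs whose labels disagree, Fat-1 female saline kept a single lung. The calls of Arg1, Isg15, Vegfa, Prdx1 and Pycard given below were lost there, at differences of 2.15, 1.24, −0.79, 0.27 and 0.43. Cyp1b1, not called over all lungs, went the other way and passed there, at 0.83. Among inflammasome genes and cytokines that itaconate is reported to restrain, 8 of 9 tested genes rose and 0 fell (median 0.96), against 43.3% higher over all genes. Il1b rose by 2.95 (adjusted p = 3.68e-04), Nlrp3 by 1.82 (3.84e-04), Isg15, an interferon-induced ubiquitin-like protein, by 1.20 (0.0161), and Il6 by 1.19 (0.00119). Under a common floor Il6 stood at 0.14 (adjusted p = 0.123). Pycard and Il12b, called higher at 0.50 and 0.80 (adjusted p = 0.0457 and 0.00680), showed no difference under that floor. Casp1, the protease of the inflammasome, rose by 0.85 (8.12e-04), and Il18, its other substrate, was at 0.07 (0.840). With each lung centred on its median 5 of 9 rose, and under a common floor 5 of 9. Over all 711 genes 446 and 339 were called in these settings, in either direction. The median of the 9 genes was 0.57 and 0.85 there, against −0.13 and 0.10 over all genes. Without the 4 lungs whose labels disagree fewer of the 9 passed as higher, and their median was 0.98, against 0.26 over all genes.

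Among receptors and signalling genes that induce Acod1, 13 of 18 tested rose and 0 fell (median 0.60), against the same 43.3% over all genes. Tumour necrosis factor (Tnf) rose by 2.28 (adjusted p = 3.98e-04), its receptor Tnfrsf1b by 2.19, the lipopolysaccharide co-receptor Cd14 by 2.15 and the lipoprotein receptor Tlr2 by 1.82. Tlr4, the receptor for lipopolysaccharide, rose by 0.65 (1.68e-04), with all 13 dust lungs above every saline lung. Irf1, an interferon-induced factor, was at 0.06 (0.648) and Ifnb1 at −0.43 (0.0944), while Ifng was at the floor in every lung. With median centring 8 of these 18 genes were higher and 5 lower in dust, and Irf1 turned to −0.33 (adjusted p = 0.00833) and Ifnb1 was at −0.82 (0.00577). Tnf, Tnfrsf1b, Cd14, Tlr2 and Tlr4 stayed higher in dust under median centring, housekeeping scaling and a common floor.

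In the interleukin 4 axis and among other inducers of Il4i1, 6 of 11 tested genes rose and 0 fell (median 0.31), close to the 43.3% higher and the median of 0.26 over all genes. Il21r, the interleukin 21 receptor, rose by 1.09 (adjusted p = 0.00209), Il4ra, the interleukin 4 receptor chain, by 1.03 (3.86e-04), Il10ra by 0.92 (0.00126) and the transcription factor Irf4 by 0.82 (0.00476). Under a common floor Irf4 stood at 0.05 (adjusted p = 0.508). The cytokines themselves were near or at the floor, with Il4 at the floor in 11 of 13 dust lungs and 9 of 10 saline lungs and Il10 in every lung. Il13 was at −0.20 (0.594) and Stat6, which carries the interleukin 4 signal, at 0.22 (0.369). With median centring 3 of 11 genes were higher and 2 lower.

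Among the other enzymes of amino acid breakdown on the panel, Arg1 rose. Arg1, which splits arginine, had 573 ± 513 normalized counts in dust (SD, n = 13) and 96.7 ± 75.7 in saline (n = 10), a rise of 2.17 (adjusted p = 0.00915), with 6 of 13 dust lungs above every saline lung. Nos2, which makes nitric oxide from arginine, was at −0.02 (0.975). Ido1, which opens the kynurenine route of tryptophan, was at 0.31 (0.306) and at the floor in 9 of 13 dust lungs and 8 of 10 saline lungs, and Ido2 was at the floor in every lung. Cyp1b1, a target of the aryl hydrocarbon receptor, was at 0.58 (0.0571). In all 1 of 4 tested genes of this list rose and 0 fell, a share below the 43.3% over all genes.

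Of the genes around the itaconate branch of metabolism few were on the panel. Of 4 tested genes of glycolysis, the citric acid cycle and hypoxia, Hif1a rose by 0.93 (adjusted p = 6.82e-04) and Vegfa, a growth factor of vessels, fell by 0.77 (0.0108). Sdha, a subunit of the succinate dehydrogenase that itaconate slows, was at −0.16 (0.184) and Acly, which makes acetyl coenzyme A from citrate, at −0.12 (0.226). With median centring Sdha and Acly were called lower, at −0.56 and −0.51 (adjusted p = 0.00150 and 0.00113). Of 3 tested stress response genes, Nfkbiz, a regulator of NF-kappa-B that itaconate derivatives act on in mouse cells, rose by 0.66 (8.75e-04), the peroxidase Prdx1 rose by 0.25 (0.0449) and Atf3 was at 0.47 (0.158). Prdx1 was at −0.14 with median centring (adjusted p = 0.328). In lungs of day 2 alone most groups held a single lung, so that fit can hardly call any gene. The medians of these 6 lists ran there from −0.06 to 0.53, against 0.18 over all genes.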

How the data were processed

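RNA of the left lungs was counted on a NanoString nCounter mouse myeloid panel. The deposited values are a signal that the authors made by scaling each lung's probe counts with 1 factor, as the spacing of the values shows. Counts under 20 had been set to 20, as had scaled values under 20 in the 5 lungs with a factor under 1, so no count model was fitted. How that factor was set is not given in the sources used here. Above the floor the values were whole multiples of the factor within 0.1 counts, from which counts were recovered. Lungs were grouped by extract code, since the labels of 4 lungs disagree.

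Tests ran on log2(value + 1) in limma 3.58.1 (R 4.3.3), as means of 8 groups over 23 lungs, with two-sided tests, Benjamini-Hochberg adjustment over the 711 genes above the floor in at least 1 lung and a threshold of 0.05. The day contrast added a day term for dust and one for saline lungs. Every contrast shared 1 spread over dust and saline lungs. Saline values tied at the floor lower it for both enzymes, so intervals and p-values within dust lungs may be too small. Tests of single values were exact permutations in Python 3.11.15 with scipy 1.17.1. A mouse has 1 left lung, so each lung is a separate mouse. The step for dust minus saline was tested on simulated data. The 2 genes and the gene lists were chosen with earlier results of these data known. Named genes were the 5 most similar to each enzyme and up to 4 called members of each list with the largest differences. Other list members were named after their values were seen.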

Additional observations from a re-analysis of the deposited data

Results flagged for a closer look

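In WT saline lungs 1 lung stood apart from the other 4 for both enzymes. WT female saline lung 1 of day 2 had 23.97 normalized counts of Acod1 and 58.6 of Il4i1, while the other 4 WT saline lungs were at the floor of 20 for each gene. The gap to the nearest lung, divided by the range of the group, was 1 in each case, above Dixon's critical value of 0.71 for 5 samples. Because the floor makes the other lungs equal, any value above it gives that ratio. Of 14 sets of 4 to 10 lungs examined, 2 stood out in this way, both through this same lung. The usual chance rate of about 1 in 20 does not apply to values tied at a floor. In that lung the Il4i1 value rested on 66 recovered counts, against 27 for its highest negative control probe.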

How the results depend on the processing

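For dust minus saline, 379 genes were called. Fits to 1 day alone held groups of a single lung, so their gene counts and p-values carry little weight. In lungs of day 2 alone Acod1 was at 1.72 and Il4i1 at 1.85. A common floor gave 1.21 and 1.87. Extraction day as a block gave 2.74 and 3.22, and the replicate block of day and code number 2.52 and 2.86. Fat-1 minus WT in dust, with 0 genes called, gave 3 genes in day 2 alone, and leaving out single lungs 0 to 5, with 5 when Fat-1 female dust lung 1 of day 2 was left out. Acod1 was at 0.33 by the titles, 0.063 by the characteristics and 0.0058 with a common floor of the dust lungs, an alternative added after seeing the data, and −0.44 to 0.51 without single lungs. Il4i1 was at −0.25 without 2 doubted lungs (whose control ratio stood apart, Fat-1 female dust lung 2 of day 1 and WT female saline lung 1 of day 2), −0.060 in day 1 alone and −0.25 to 0.82 without single lungs. In saline, 1 gene was called with a common floor, 15 without the doubted lungs, 1 in day 2 alone and 0 to 2 without single lungs. Acod1 was there at 0.15 with floored values at their highest and 0.012 with a cartridge block, and Il4i1 at −0.34 to 0.41 without single lungs. Settings in which every saline lung was at the floor gave no value. The interaction gave 1 gene with a common floor, 2 without the doubted lungs, 4 in day 2 alone and 0 to 1 without single lungs. Acod1 was there at 0.36 by the titles, 0.094 by the characteristics, 0.030 without the 4 lungs whose labels disagree and −0.37 to 0.58 without single lungs. Il4i1 was there at −0.66 without the doubted lungs and −0.29 to 0.79 without single lungs. In day 1 alone the Il4i1 interaction was −0.060, the same as its dust difference, since every saline lung of that day was at the floor. Between sexes 6 genes were called in day 2 alone and 0 to 1 without single lungs. Acod1 was there at 0.51 in day 1 alone and −0.83 to 0.12 without single lungs, and Il4i1 at 0.47 and −1.01 to 0.064. Neither enzyme passed in the genotype, interaction and sex contrasts under any setting run.

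The day contrast in dust called 49 genes, against 97 with floored values at their highest, 76 with median centring, 108 with a cartridge block, 26 with the replicate block of day and code number, 103 by the titles, 13 without the 4 lungs, 23 without the doubted lungs and 280 without the 2 saturated lungs (added after seeing the data). Without single lungs it called 2 (without WT male dust lung 1 of day 2) to 286 (without Fat-1 male dust lung 1 of day 2). Acod1 passed in every setting, at 1.49 to 2.67, and at 1.62 to 2.67 without single lungs. Il4i1 passed in every setting that kept all lungs or left out a set, at 1.698 to 2.59, and was at 1.43 to 2.59 without single lungs. Lungs with the same day and code number did not pair, since the correlations of their deviations from group means ran from −0.45 to 0.74 (median −0.01), and the replicate block changed no call of either enzyme. Il4i1 minus Acod1 by day was 0.26 with a common floor and −0.17 to 0.016 without single lungs. The correlation of the 2 genes was 0.80 within day 1. Where a value moved, the cause was not tested. The floor limits all saline values, and counting error is largest near 20 counts.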
